A study of Mus musculus with 6 samples.

Results

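The transcripts described here are those of Trp53, the mouse gene for the tumour suppressor p53, and of 9 genes of its circuit. These are Mdm2, Ccng1, Aen, Bax, Bbc3, Phlda3, Sesn1, Sesn2 and Zmat3. They were chosen by name, as Trp53, its inhibitor and direct targets, with earlier results of these data already known. Cdkn1a, another target of p53, was left out of these and of the further targets described below. All 10 were found among the 55401 genes of the table, and all 10 passed the filter on low counts. The cells were C2C12 myotubes, cultures of a mouse myoblast line kept in medium with 2% horse serum. Cultures of 1 group received siRNA to SENP7, which cleaves the small modifier SUMO off its target proteins, and those of the other received GL2 siRNA, a control aimed at firefly luciferase. Either siRNA was given as 100 pmol for 3 days. Polyadenylated RNA was sequenced from 3 biological replicates of each group, 6 libraries in all.

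p53 is a transcription factor that is kept scarce by Mdm2, a ubiquitin ligase which binds it and sends it to the proteasome. Stress such as DNA damage frees p53 from Mdm2, mostly without a change of its mRNA, and p53 then raises transcription of its targets. Mdm2 is itself a target, which closes a negative feedback loop, and both p53 and Mdm2 are known to be modified by SUMO. Other targets stop the cell cycle, start apoptosis through mitochondria, or limit growth signalling, and in muscle cells the pathway is known for its part in the exit from the cell cycle and in atrophy.

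Totals of gene-assigned reads ran from 25223218 to 30865945 per library, and a member had between 274 (Bbc3) and 7204 (Ccng1) reads in a library. Senp7 itself had 275, 279.2 and 346.7 normalized counts in SENP7 siRNA libraries, against 556.4, 616.4 and 648.8 in control siRNA libraries (log2 fold change -1.02 ± 0.11, SE, adjusted p = 0.000428 by limma). Control replicate 3 stood apart from the other controls on the first principal component (19.1, against 36.7 and 33.3, with the SENP7 siRNA libraries between -32.5 and -27.7). Of 10 myotube markers, 3 were higher (Ckm, Myh8 and Mymk) and 0 lower at an adjusted p under 0.05, against 10.2% and 10.7% of all genes tested. Their summed normalized count was 720461 to 803993 in SENP7 siRNA libraries, against 626902 to 666956 in control siRNA libraries. Of 10 markers of cycling or undifferentiated myoblasts, 3 were higher (Id1, Id3 and Pax7) and 1 lower (Id2), against the same shares of all genes, with sums of 9517 to 10678 in SENP7 siRNA libraries, against 8851 to 11484 in control siRNA libraries. No marker of either list was at 0. The part of these marker levels in the results below was not tested, and in such bulk samples fewer cells of a type and less RNA per cell cannot be told apart.

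p53 binds DNA at a response element made of a pair of 10-base repeats, and the promoter windows of the members were searched for it, whatever their change. RefSeq windows on GRCm38.p6, from 250 bases before to 50 after a transcript start, were at hand for 9 of the 10 members, 13 windows in all. A match kept the C and G at the core of each repeat, had at most 3 mismatches to the p53 response element consensus and had a spacer of at most 1 base. The consensus reads the same on both strands. Of 32851 windows of all mouse genes, 2.82% held such a match, 0.682% held 1 with at most 2 mismatches and 0.11% held 1 with at most 1 mismatch. Among the members, Ccng1, Aen, Bax, Bbc3, Sesn1 and Trp53 had a match, and Mdm2, Phlda3 and Sesn2 had no such letters in this window. The members were chosen as known targets of p53 and some had several windows, so their share is not like that of single windows of all genes. It was not tested. A match is a description of the letters and shows no binding. The matched stretches follow, each read along its gene's strand, with letters that match the consensus in capitals and mismatches and spacers in lower case.
Ccng1, chr11:40755462-40755481, minus strand: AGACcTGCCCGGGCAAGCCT
Bax, chr7:45467079-45467099, minus strand: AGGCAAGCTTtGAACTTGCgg
Aen, chr7:78895937-78895956, plus strand: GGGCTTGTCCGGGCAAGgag
Trp53, chr11:69580284-69580303, plus strand: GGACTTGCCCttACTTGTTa
Bbc3, chr7:16309486-16309505, plus strand: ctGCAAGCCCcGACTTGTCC
Sesn1, chr10:41887266-41887285, plus strand: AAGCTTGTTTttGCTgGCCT
The Ccng1 stretch had 1 mismatch and the Bax stretch 2 with a spacer of 1 base, and both lay upstream of the annotated gene, as did that of Trp53. The stretch of Aen lay in an untranslated part of an exon, and those of Bbc3 and Sesn1 in introns of longer transcripts, upstream of a start inside the gene. The stretches of Aen, Trp53, Bbc3 and Sesn1 each had 3 mismatches.

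**Figure D1:**
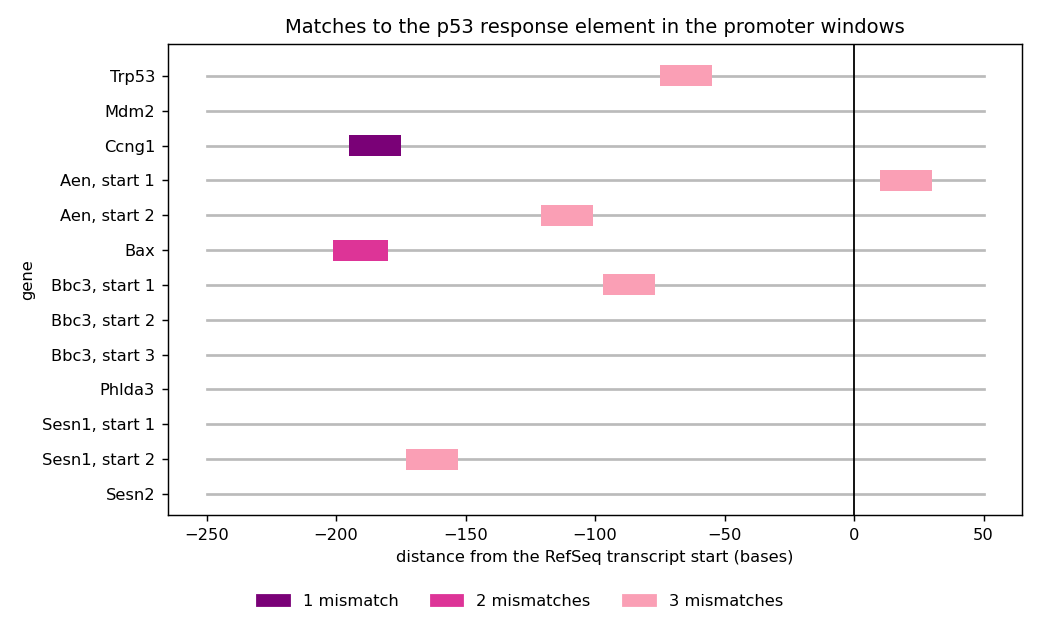
Distance in bases from the RefSeq transcript start (x axis, start at 0) of matches to the p53 response element in 13 promoter windows of 9 genes (rows); grey lines are the windows and bars the matches, coloured by the number of mismatches. Ccng1 had the match with the fewest mismatches (1), from -195 to -176.

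3 upstream regions are shown in full up to the first annotated start, as examples. Ccng1 fell and held the closest match, Mdm2 fell with no match in this window, and Trp53 did not pass and had a looser match. Bax, whose match had 2 mismatches, did not pass (log2 fold change 0.05, adjusted p = 0.757 by limma). Of the other genes whose match had 3 mismatches, Aen fell, and Bbc3 and Sesn1 did not pass. Sesn2 rose with no match in its window. Whether a match goes with a change was not tested. Capitals mark the match. The p53 sites for which Mdm2 is best known lie in its first intron, outside this window.
Ccng1, chr11:40755312-40755536, minus strand: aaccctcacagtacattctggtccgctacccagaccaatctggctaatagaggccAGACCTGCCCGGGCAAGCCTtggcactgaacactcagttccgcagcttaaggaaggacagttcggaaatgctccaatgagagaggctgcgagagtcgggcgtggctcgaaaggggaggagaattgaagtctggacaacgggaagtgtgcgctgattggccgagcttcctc
Mdm2, chr10:117710759-117711008, minus strand: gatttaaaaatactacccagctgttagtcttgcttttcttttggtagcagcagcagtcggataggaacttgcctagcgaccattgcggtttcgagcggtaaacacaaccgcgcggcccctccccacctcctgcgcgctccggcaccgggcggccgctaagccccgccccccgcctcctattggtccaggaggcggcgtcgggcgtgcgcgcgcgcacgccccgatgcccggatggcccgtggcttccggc
Trp53, chr11:69580109-69580358, plus strand: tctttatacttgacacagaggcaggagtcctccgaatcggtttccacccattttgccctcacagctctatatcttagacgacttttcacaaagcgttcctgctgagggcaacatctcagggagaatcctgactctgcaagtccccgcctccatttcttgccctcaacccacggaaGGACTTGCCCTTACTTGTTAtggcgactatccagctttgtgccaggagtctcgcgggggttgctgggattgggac
TGATGNAA, a core of the element bound by the stress factor ATF4, was searched on both strands of the same windows because ATF4 is another known inducer of Sesn2. It was in none of the 13 windows and in 3.97% of all windows.

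The changes of the members were small, and most members did not pass the test. Ccng1, Aen and Mdm2 fell and Sesn2 rose. Trp53, Bax, Bbc3, Phlda3, Sesn1 and Zmat3 did not pass the test, so 4 of 10 members were called, against 20.9% of all 14668 genes tested. By direction, 3 of 10 were lower, against 10.7% of all genes, and 1 of 10 was higher, against 10.2%. The threshold was an adjusted p of 0.05 from limma, with adjustment over all genes tested. The median log2 fold change of the 10 members was 0.00, as it was over all genes, and the median absolute change was 0.19, against 0.17 over all genes and 0.49 over all called genes. In 7 of 10 members the SENP7 siRNA libraries did not overlap the control siRNA libraries, as was so for 39.6% of all genes. The number of members called depended on the setting. With control replicate 1, 2 or 3 dropped, 3, 1 and 6 members passed beside 16.4%, 11.1% and 32.1% of all genes. With SENP7 replicate 1, 2 or 3 dropped, 2, 1 and 2 members passed beside 11.3%, 11% and 15%. The recovered reads gave 5 members with edgeR (20.7% of all genes) and with limma-voom (20.7%), and 3 with DESeq2 (20.5%). TMM scaling gave 5 (20.8%), no filter 3 (11.3%), and quantile normalization 4 (21.1%). Restricting the test to genes with a mean of at least 50 gave 4 (22.3%), as did a pseudocount of 0.5 (20.8%) or 5 (21.1%). With the replicate number as a block 6 members passed, beside 4175 of the 14668 genes.

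**Figure D2:**
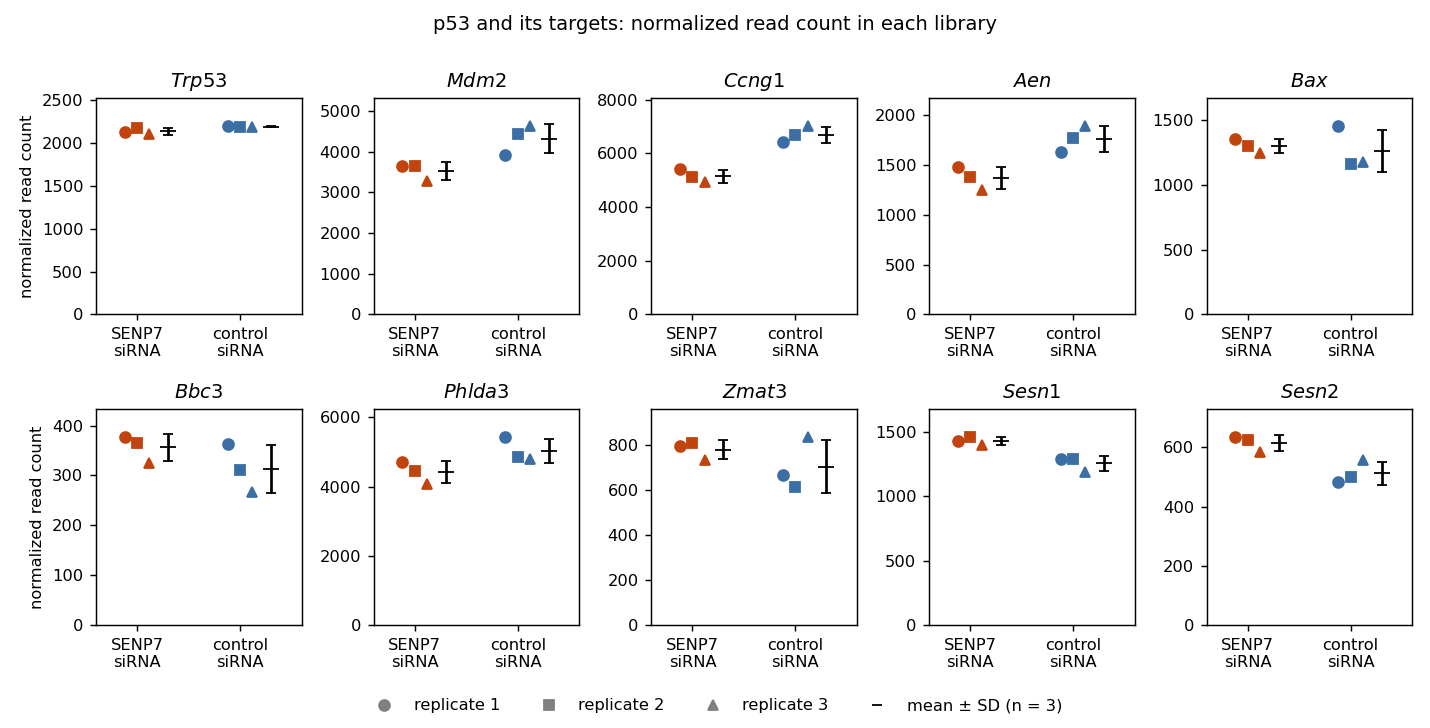
Normalized read count (y axis, from 0) of the 10 genes in 3 SENP7 siRNA libraries (left in each panel) and 3 control siRNA libraries (right); symbols are replicates and the bar beside them is the mean ± SD. Ccng1, Aen, Mdm2, Phlda3 and Trp53 were lower in all 3 SENP7 siRNA libraries than in any control siRNA library, and Sesn1 and Sesn2 were higher. Of all genes tested, 39.6% had no such overlap.

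**Figure D3:**
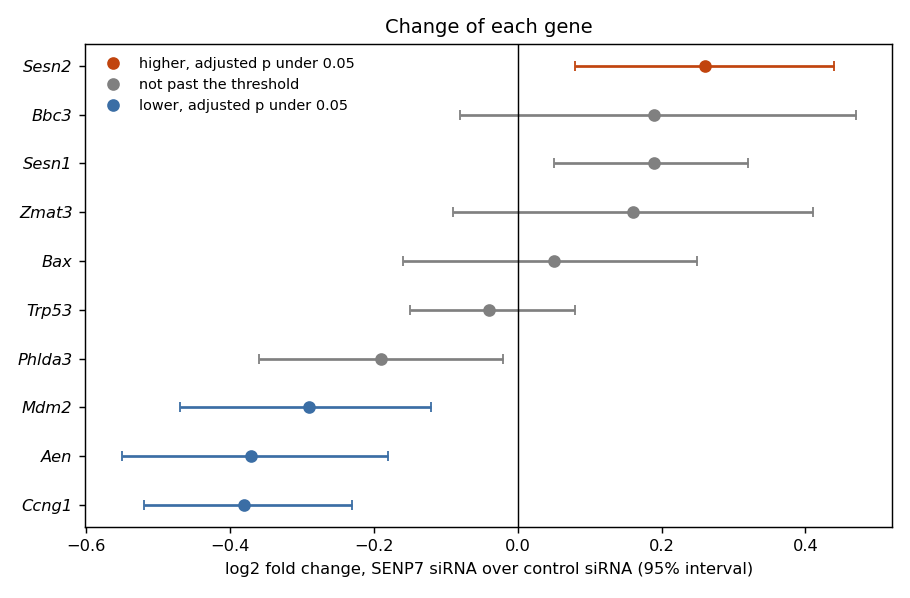
Log2 ratio of SENP7 to control siRNA (x axis) with its 95% interval from limma for the 10 genes (rows), coloured by whether the adjusted p was under 0.05. Values run from -0.38 (Ccng1) to 0.26 (Sesn2), and Trp53 sat at -0.04.

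Trp53 (ENSMUSG00000059552.13) is on the plus strand of chromosome 11, at 69580359 to 69591873 (GRCm38, as for all genes here). Its normalized counts were 2124, 2176 and 2098 in SENP7 siRNA libraries, against 2192, 2187 and 2186 in control siRNA libraries. The groups did not overlap, with a change of -2.54% in the mean. The 3 control values spread less (SD 3.41) than counting error alone gives at this depth (SD 47.6). The difference did not exceed the error of the test, with a log2 difference of -0.04 ± 0.05 (SE, adjusted p = 0.649) and a 95% interval of -0.15 to 0.08, which spans a change of -10.1% to 5.59%. Over the 6 libraries 50 of 14668 genes had a smaller SD of log2 counts than Trp53. The SENP7 siRNA values (SD 39.6) also spread less than the counting error in controls (SD 47.6). Whether the transcript itself is steadier than others was not tested. The protein-coding genes whose profile over the 6 libraries was closest to that of Trp53 were Rab14, Nub1 and Pafah1b2, with root mean square differences of 0.00892, 0.0117 and 0.013 in mean-centred log2 counts. Since Trp53 hardly varied, such closeness marks genes that hardly varied either, and shared regulation was not tested. The processed copy Trp53-ps had between 2.14 and 6.048 normalized counts in any library.

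Mdm2 (ENSMUSG00000020184.15), the ubiquitin ligase that restrains p53, is on the minus strand of chromosome 10, at 117688875 to 117710758. It had 3643, 3664 and 3277 normalized counts in SENP7 siRNA libraries, against 3926, 4429 and 4626 in control siRNA libraries. Every SENP7 siRNA library was below every control, with control replicate 1 nearest to them. The mean was 3528 ± 218 in SENP7 siRNA libraries and 4327 ± 361 in control siRNA libraries (SD, n = 3 each), a change of -18.5% (log2 fold change -0.29 ± 0.08, SE, adjusted p = 0.028 by limma). The direction was the same in all 16 alternatives and 12 passed. Dropping control replicate 2 (adjusted p = 0.113) or SENP7 replicate 1, 2 or 3 (0.0704, 0.0674 and 0.0909) ended the call, and adjusted p lay between 0.0092 and 0.113 in all alternatives.

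Ccng1 (ENSMUSG00000020326.7), which encodes cyclin G1, a target that recruits a phosphatase to Mdm2, is on the minus strand of chromosome 11, at 40748552 to 40755311. It had 5410, 5132 and 4919 normalized counts in SENP7 siRNA libraries, against 6413, 6682 and 7007 in control siRNA libraries. The gap between the groups was wider than the range within either. The mean was 5154 ± 246 in SENP7 siRNA libraries and 6701 ± 297 in control siRNA libraries (SD, n = 3 each), a change of -23.1% (log2 fold change -0.38 ± 0.06, SE, adjusted p = 0.00397 by limma). Of the 10 members it alone passed in all 16 alternatives, with adjusted p between 7.64e-06 and 0.0268. A pseudogene described as a copy of cyclin G1 had 0 counts in all 6 libraries.

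Aen (ENSMUSG00000030609.18) encodes a nuclease that p53 induces and that degrades DNA in apoptosis. The gene is on the plus strand of chromosome 7, at 78895854 to 78911209. Its normalized counts were 1474, 1375 and 1248 in SENP7 siRNA libraries, against 1625, 1772 and 1884 in control siRNA libraries, with no overlap. The mean was 1365 ± 113 in SENP7 siRNA libraries and 1760 ± 130 in control siRNA libraries (SD, n = 3 each), a change of -22.4% (log2 fold change -0.37 ± 0.08, SE, adjusted p = 0.0131 by limma). The call was lost without control replicate 2 (adjusted p = 0.0621) or SENP7 replicate 2 (0.0502), and held in the other 14 alternatives, with 0.00215 to 0.0621 over all settings.

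Neither of the apoptosis genes of the BCL2 family passed. Bax (ENSMUSG00000003873.11, chromosome 7, 45461697 to 45466898, minus strand) encodes a protein that opens the outer mitochondrial membrane. It had 1357, 1300 and 1244 normalized counts in SENP7 siRNA libraries, against 1452, 1165 and 1178 in control siRNA libraries. Control replicate 1 was above all SENP7 siRNA libraries and the other controls were below them. The log2 fold change of 0.05 (95% interval -0.16 to 0.25, adjusted p = 0.757) turned to -0.01 when control replicate 2 was dropped, and to a value rounding to 0.00 when control replicate 3 was. An annotated protein-coding gene, Gm45808, shares 12.2% of the exon bases of Bax on the same strand and had at most 0.9473 counts in a library.

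Bbc3 (ENSMUSG00000002083.13, chromosome 7, 16308393 to 16318205, plus strand) encodes PUMA, a BH3-only protein that blocks the survival members of that family. Its normalized counts were 377.1, 365.9 and 325.9 in SENP7 siRNA libraries, against 362.9, 311.5 and 266.5 in control siRNA libraries. The groups overlapped through control replicate 1. The log2 fold change was 0.19 ± 0.12 (SE, adjusted p = 0.302), with an interval of -0.08 to 0.47, and passed in none of 16 alternatives.

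Phlda3 (ENSMUSG00000041801.5, chromosome 1, 135766119 to 135769136, plus strand) encodes a small pleckstrin homology protein that holds the kinase Akt off the membrane. It had 4712, 4461 and 4086 normalized counts in SENP7 siRNA libraries, against 5435, 4856 and 4797 in control siRNA libraries. The groups did not overlap, yet SENP7 replicate 1 came close to control replicate 3. The log2 fold change of -0.19 ± 0.08 missed the threshold (SE, adjusted p = 0.117 by limma) and passed when control replicate 3 was dropped (-0.22, adjusted p = 0.0445). Its adjusted p spanned 0.0311 to 0.305 among the alternatives.

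Zmat3 (ENSMUSG00000027663.12, chromosome 3, 32334792 to 32366014, minus strand) encodes a zinc finger protein that binds RNA and acts in splicing. It had 799.4, 809.8 and 734.2 normalized counts in SENP7 siRNA libraries, against 666.2, 613 and 837.5 in control siRNA libraries. Control replicate 3 was above all other libraries, and the other controls were below all SENP7 siRNA libraries. With all libraries the log2 fold change was 0.16 ± 0.11 (SE, adjusted p = 0.353), and with control replicate 3 dropped it was 0.29 (adjusted p = 0.0145). That was the 1 alternative of 16 in which it passed (adjusted p 0.0145 to 0.763).

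The sestrins, which inhibit the growth kinase complex mTORC1 through GATOR2 and are known to be induced by p53 and by other stress factors, lay above the controls in all SENP7 siRNA libraries for both members, of which Sesn2 passed. Sesn2 (ENSMUSG00000028893.8, chromosome 4, 132492032 to 132510501, minus strand) had 635.3, 624.8 and 583.5 normalized counts in SENP7 siRNA libraries, against 483.8, 498.4 and 556.4 in control siRNA libraries. There was no overlap, and SENP7 replicate 3 and control replicate 3 were the nearest pair. The mean was 614.5 ± 27.3 in SENP7 siRNA libraries and 512.9 ± 38.4 in control siRNA libraries (SD, n = 3 each), a change of 19.8% (log2 fold change 0.26 ± 0.08, SE, adjusted p = 0.0462 by limma). This call sat near the threshold. It was lost in 7 of 16 alternatives, with adjusted p = 0.113 and 0.151 when control replicate 1 or 2 was dropped, and 0.168, 0.153 and 0.0619 when SENP7 replicate 1, 2 or 3 was. It was also lost with DESeq2 (0.0565) and with no filter on low counts (0.0733), and adjusted p ran from 0.0083 to 0.168 over all settings.

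Sesn1 (ENSMUSG00000038332.13, chromosome 10, 41809935 to 41908424, plus strand) had 1430, 1463 and 1401 normalized counts in SENP7 siRNA libraries, against 1291, 1291 and 1191 in control siRNA libraries. The groups were apart, with a mean of 1432 ± 31.2 in SENP7 siRNA libraries and 1257 ± 57.9 in control siRNA libraries (SD, n = 3 each). The log2 fold change of 0.19 ± 0.06 had a 95% interval of 0.05 to 0.32 and an adjusted p of 0.0544 by limma. It passed in 4 of 16 alternatives, among them edgeR on the recovered reads (adjusted p = 0.0454), with 0.0329 to 0.193 over all settings.

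In the authors' deposited table, which adjusted over 27493 genes and called 9.26% of them (4.81% as lower and 4.45% as higher), Ccng1 (adjusted p = 1.04e-05), Aen (0.00349) and Mdm2 (0.0152) passed at 0.05 as lower. In the authors' deposited table Sesn2 (0.12), Sesn1 (0.154), Phlda3 (0.222), Bbc3 (0.719), Zmat3 (0.806), Bax and Trp53 (both 0.957) did not pass.

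Per kilobase of exon, the level of the members spanned a wide range. In control siRNA libraries Phlda3 led with 3226 ± 226 normalized counts per kilobase, followed by Ccng1 with 1908 ± 84.7 (SD, n = 3 each). Mdm2 (851 ± 71.1) and Bax (803 ± 103) overlapped in control siRNA libraries, whereas in SENP7 siRNA libraries Bax (789 to 861) lay above Mdm2 (645 to 721) in level per kilobase. Trp53 came next with 527 ± 9.78 in SENP7 siRNA libraries and 541 ± 0.844 in control siRNA libraries, and was above all lower members in every library. Sesn1 and Aen overlapped in control siRNA libraries (299 to 324 and 280 to 325 per kilobase) and were apart in SENP7 siRNA libraries (352 to 368 and 215 to 254). Bbc3 and Sesn2, both at 148 per kilobase in control siRNA libraries, did not differ there beyond their spread. Zmat3 was last with 68.3 ± 3.59 in SENP7 siRNA libraries and 61.7 ± 10.3 in control siRNA libraries. The length used is that of all annotated exons, so a gene with a long exon that few transcripts use has a level that is too low.

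Within the groups, the places of the libraries were as follows. SENP7 replicate 3 was the lowest of its group in all 10 members, a place it took in 42% of all genes tested. Control replicate 3 was the highest control for Mdm2, Ccng1, Aen, Sesn2 and Zmat3 (5 of 10, against 38% of all genes tested) and the lowest for Trp53, Bbc3, Phlda3 and Sesn1 (4 of 10, against 41.1%). Control replicate 1 was the lowest control for Mdm2, Ccng1, Aen and Sesn2 (4 of 10, against 35.5%). The places of these controls were thus near those over all genes. For the 3 genes that fell, the gap to SENP7 siRNA was smallest from control replicate 1. Against the mean of the 6 libraries on the log2 scale, Aen deviated by -0.07, -0.17 and -0.31 in SENP7 replicates 1, 2 and 3, and by 0.07, 0.20 and 0.28 in control replicates 1, 2 and 3.

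**Figure D4:**
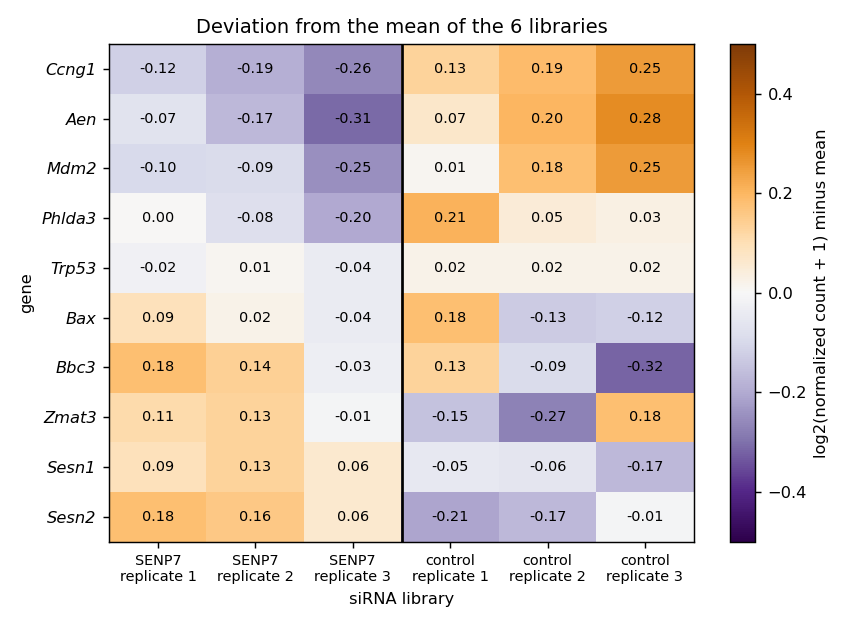
Deviation of log2(normalized count + 1) from the mean of the 6 libraries (colour and printed value) for the 10 genes (rows) in 3 SENP7 siRNA libraries (left) and 3 control siRNA libraries (right). Ccng1, Aen and Mdm2 were below the mean in all 3 SENP7 siRNA libraries and above it in all 3 control siRNA libraries, and Trp53 stayed within 0.04 of it.

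Other known targets of p53 moved in either direction and seldom passed. Of 42 such genes, all tested, 2 rose, 4 fell and 36 did not pass, so that 14.3% were called against 20.9% of all genes, and the median log2 fold change was -0.01, against 0.00. The genes that rose were Fdxr, the ferredoxin reductase of mitochondria (634.9 ± 67.2 in SENP7 siRNA libraries and 429.9 ± 51.4 in control siRNA libraries, log2 fold change 0.56, adjusted p = 0.00728), and Ak1, the muscle adenylate kinase (0.29, adjusted p = 0.00822). Pltp, a phospholipid transfer protein, fell the most in the list (3005 ± 83.8 in SENP7 siRNA libraries and 4369 ± 94.9 in control siRNA libraries, -0.54, adjusted p = 0.000309). The zinc finger gene Zfp365 (-0.42, adjusted p = 0.00946), the translesion polymerase gene Polk (-0.32, 0.0185) and Zfp385a (-0.30, 0.0469) fell too. Pltp, Fdxr and Zfp365 passed in all 16 alternatives. Ak1 was lost without SENP7 replicate 1 (adjusted p = 0.056). Polk was lost on dropping control replicates 1 or 2 (0.05 and 0.0776) or SENP7 replicates 1, 2 or 3 (0.0519, 0.0636 and 0.0607). Zfp385a was lost in 8 alternatives, among them without control replicates 1 or 2 (0.126 and 0.178) and SENP7 replicates 1, 2 or 3 (0.0758, 0.146 and 0.135). The called genes of this list were 3 without SENP7 replicate 1, beside 11.3% of all genes (6 and 20.9% with all libraries).

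Regulators of p53 held few called genes. Of 24 tested of 25 listed, 1 rose and 0 fell, so 4.17% were called against 20.9% of all genes, with a median of 0.03. The riser was Crebbp, an acetyltransferase that acts on p53 (1436 ± 60.1 in SENP7 siRNA libraries and 1130 ± 67 in control siRNA libraries, log2 fold change 0.35, adjusted p = 0.0073), which passed in all 16 alternatives. With control replicate 3 dropped 6 rose and 2 fell, beside 32.1% of all genes called. With control replicate 1 dropped 2 were called, beside 16.4% of all genes. Mdm4, the relative of Mdm2 that binds p53 without degrading it, was at 2310 ± 185 in SENP7 siRNA libraries and 2202 ± 234 in control siRNA libraries (0.07, 95% interval -0.13 to 0.27). Cdkn2a, whose ARF product inhibits Mdm2, had 0 reads in each of the 6 libraries, which allows up to 3 reads, or between 0.0972 and 0.119 CPM in a library, counting error alone.

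Among relatives of the members, most did not pass. Of 12 tested of 15 listed, 0 rose and 3 fell (Phlda1, Ccng2 and Bok), against 10.2% and 10.7% of all genes. Bok is also counted in the BCL2 family list below. The median log2 fold change was -0.15, against 0.00 over all genes, and 25% were called against 20.9%. Phlda1, the growth factor responsive relative of Phlda3, had 2286, 2157 and 1933 normalized counts in SENP7 siRNA libraries, against 3983, 3800 and 2727 in control siRNA libraries (-0.70 ± 0.13, adjusted p = 0.00697). Ccng2, a relative of Ccng1 that FoxO factors induce, had 1483, 1426 and 1397 in SENP7 siRNA libraries, against 2274, 2244 and 1642 in control siRNA libraries (-0.50 ± 0.12, adjusted p = 0.016). In both genes control replicate 3 was the lowest control, unlike in Ccng1. The Ccng2 call was lost without control replicates 1 or 2 (adjusted p = 0.0523 and 0.0823) and without SENP7 replicates 2 or 3 (0.0615 and 0.0566), and that of Phlda1 in no alternative. Sesn3, the FoxO-induced sestrin, was at 1578 ± 226 in SENP7 siRNA libraries and 1657 ± 219 in control siRNA libraries (-0.07 ± 0.12, adjusted p = 0.711). Whether these relatives differed from the members in their change was not tested. Bak1, the partner of Bax at the mitochondrial membrane, did not pass (-0.16, adjusted p = 0.159), and neither did the p53 relative Trp63 (-0.19, adjusted p = 0.163). Without control replicate 3, 1 relative rose and 5 fell, beside 32.1% of all genes called.

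The BCL2 family and other genes of mitochondrial apoptosis moved both ways. Of 23 tested of 25 listed, 3 rose and 3 fell, so 26.1% were called against 20.9% of all genes. Their median log2 fold change was 0.00. Bok, a relative of Bax, fell (1350 ± 38.5 in SENP7 siRNA libraries and 1930 ± 301 in control siRNA libraries, -0.50 ± 0.10, adjusted p = 0.0091) and passed in all 16 alternatives. The survival genes Bcl2l1 (-0.25, adjusted p = 0.0102) and Bcl2 (-0.27, adjusted p = 0.0409) fell by small steps. Among those that rose were Cycs, cytochrome c of the respiratory chain and the apoptosome (0.32, adjusted p = 0.0276), and Aifm1, a mitochondrial flavoprotein (0.26, adjusted p = 0.00999). Dropping control replicate 2 or SENP7 replicate 1 gave 3 called genes (beside 11.1% and 11.3% of all genes). Dropping SENP7 replicate 2 gave 1, Bok (beside 11%). In that fit Bcl2l1 (adjusted p = 0.0627), Bcl2 (0.109), Cycs (0.109) and Aifm1 (0.0504) did not pass. Bcl2l1, Bcl2 and Cycs were also lost when control replicate 2 (adjusted p = 0.0505, 0.148 and 0.0705) or SENP7 replicate 1 (0.0594, 0.127 and 0.0965) was dropped. Bcl2 was lost in 7 alternatives in all, among them those with control replicate 3 (0.0507) or SENP7 replicate 3 (0.108) dropped.

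Other branches around the members held few called genes. Over all genes tested 20.9% were called, 10.2% as higher and 10.7% as lower, with a median of 0.00. Among 13 tested of 14 GATOR and Rag genes, on which sestrins act, 1 rose and 0 fell. It was Rragd, a Rag GTPase that places mTORC1 on lysosomes, with 569.6, 571.3 and 522.9 normalized counts in SENP7 siRNA libraries, against 239.9, 285.9 and 326.8 in control siRNA libraries (0.97 ± 0.11, adjusted p = 0.000706), and it passed in all 16 alternatives. The list had a median of -0.02 and 7.69% called, and 2 called genes when control replicate 3 was dropped (beside 32.1% of all genes). Of 18 cell cycle genes that p53 is known to repress indirectly, 1 fell and 0 rose (5.56% called). Log2 fold changes ran from -0.38 to 0.28 around a median of -0.18. The faller was Rrm2, a ribonucleotide reductase subunit (4002 ± 240 in SENP7 siRNA libraries and 4910 ± 380 in control siRNA libraries, -0.29, adjusted p = 0.0247), whose call was lost without control replicate 1 (0.06) or SENP7 replicates 1, 2 or 3 (0.0652, 0.0631 and 0.0806). With control replicate 2 dropped that list had 3 called genes, beside 11.1% of all genes. With control replicate 1 or SENP7 replicate 1 or 2 dropped it had 0, beside 16.4%, 11.3% and 11% of all genes. With SENP7 replicate 3 dropped 1 other gene rose and 0 fell, beside 15% of all genes called. Rrm2 stayed lower there without passing (-0.24, adjusted p = 0.0806). Of 12 ATF4 targets, 1 fell and 0 rose (8.33% called, median -0.08). The faller was Vldlr, a lipoprotein receptor (-0.89, adjusted p = 0.0212), which was lost with no filter (0.0936) and when control replicate 1 or 2 (0.0709 and 0.0989) or SENP7 replicate 1 or 2 (0.0897 and 0.0903) was dropped. The ATF4 list had 4 called genes with control replicate 3 dropped (beside 32.1% of all genes) and 3 with SENP7 replicate 3 dropped (beside 15%). It had 0 with any other library dropped (beside 11% to 16.4%).

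**Figure D5:**
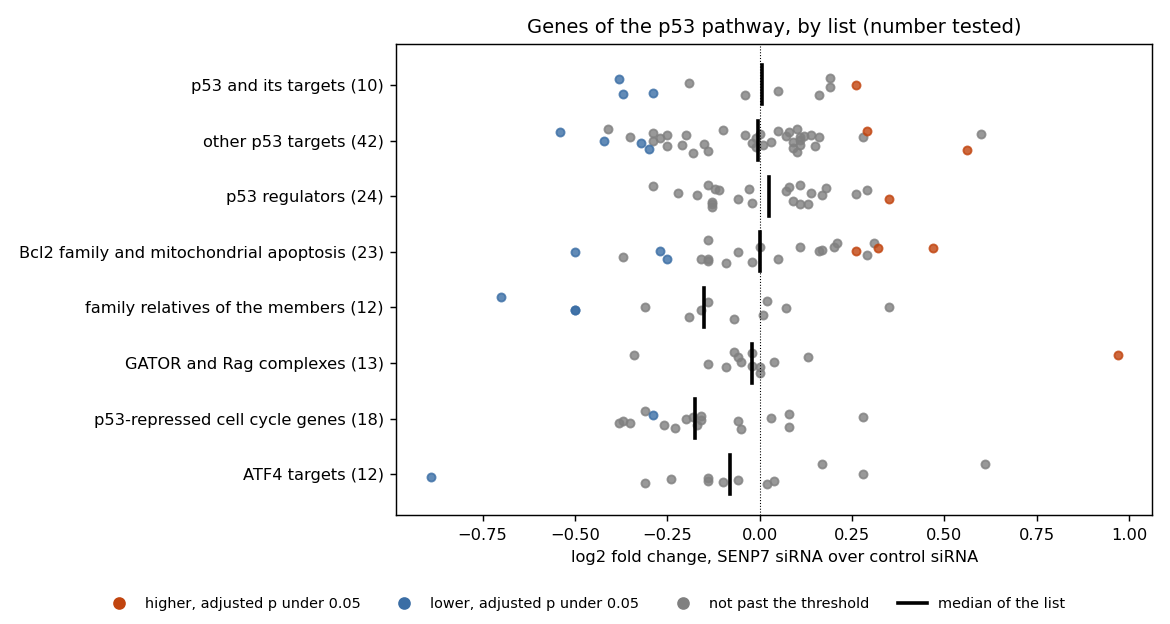
Log2 ratio of SENP7 to control siRNA (x axis) for the 10 genes and for 7 lists around them (rows, with the number tested); points are genes, coloured by whether the adjusted p was under 0.05, and black bars are medians. The medians lie between -0.18 (cell cycle genes) and 0.03 (p53 regulators).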

How the data were processed

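STAR 2.6.1d, DESeq2, featureCounts 1.6.4, bcl2fastq and Trim Galore 0.6.4 are named, with GRCm38.p6, in the submitters' processing notes. For annotation release and strand setting, the sources used here name none. The deposited signal per library was a scaled read count, with 1 factor for all genes. Of the values, 100% came out whole in reads (tolerance 0.1), which allowed the reads to be recovered. The authors also deposited log2 fold changes, standard errors, Wald scores and p-values, per the file headers. For the members and Senp7, the deposited gene length equalled the exons of GENCODE M21. That release shared 54349 gene identifiers with the 55401 genes deposited, all with the same coordinates.

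limma 3.58.1 (R 4.3.3; robust, with a mean-variance trend) was fitted to log2(normalized count + 1) for genes that reached 10 in 3 or more libraries, and its model held the group alone. Fold changes, taken on the log2 scale with this pseudocount, are too small for low genes. Tests were two-sided, with Benjamini-Hochberg adjustment over 14668 genes and a threshold of 0.05. The 16 alternatives were the replicate block, edgeR 4.0.16, DESeq2 1.42.0, limma-voom, other scalings, filters and pseudocounts, and each library left out. The fit was tested on simulated data. Members and lists were chosen with earlier results of these data known. Named were Senp7, the members, their relatives, list members past the threshold and the 3 genes most like Trp53, with Cdkn2a added after its values were seen. A single-gene result of the apoptosis list is not reported here. Of 2 rows named Ddit3, the higher was used. That the 3 replicates came from separate cultures rests on the submitters' word.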

Additional observations from a re-analysis of the deposited data

How the results depend on the processing

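Ccng1 kept its direction and call in all 16 alternatives and Trp53, Bbc3 and Bax passed in none. Mdm2, Aen, Sesn2, Sesn1, Phlda3 and Zmat3 kept their direction in all 16 but were called in 12, 14, 9, 4, 2 and 1 of them. The log2 fold change of Bax (0.05) ran from -0.01 to 0.15 with 1 library left out, and changed sign at -0.01 without control replicate 2 and at a value rounding to 0.00 without control replicate 3. With 1 library left out, the number of genes called ran from 1619 to 4702 (3062 with all), or 11% to 32.1% of all genes (20.9% with all). That of members ran from 1 to 6 (4 with all). On the same terms the counts ran from 3 to 9 for other p53 targets, 1 to 8 for p53 regulators, 1 to 7 for the BCL2 family, 2 to 6 for relatives, 1 to 2 for GATOR and Rag genes, 0 to 3 for cell cycle genes and 0 to 4 for ATF4 targets. DESeq2 called 2 ATF4 targets and 2 cell cycle genes (20.5% of all genes). With no filter on low counts 3 cell cycle genes were called (11.3% of all genes). The cause was not tested, beyond the smaller number of samples when a library is left out. No scaling moved the median of all genes by more than 0.01 on the log2 scale (quantile normalization, -0.01).

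Whether libraries with the same replicate number were paired was not settled. Their deviations correlated by 0.13, 0.0624 and 0.251 for numbers 1, 2 and 3. SENP7 replicate 3 correlated by -0.22 and -0.0995 with control replicates 1 and 2. SENP7 replicate 2, however, correlated best with control replicate 1 (0.141). With the replicate number as a block 4175 of 14668 genes, 6 members and 3 p53 regulators were called. The members added were Sesn1 (adjusted p = 0.0329) and Phlda3 (0.0311). The call of Vldlr was lost with the block (adjusted p = 0.0859). Each member had at least 274 reads in every library. A gene that did not pass is not shown to be unchanged. The number of libraries limits the precision, with 95% intervals that span -0.08 to 0.47 for Bbc3.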
